A study of Mus musculus with 6 samples.

Results

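The chemokine system of the mouse aorta was described in mice deficient in eNOS, the endothelial nitric oxide synthase (gene Nos3), whose product nitric oxide relaxes vessels. Its members were all genes whose single annotated symbol names a CC, CXC or C chemokine, one of their receptors or an atypical receptor, or is Cx3cl1 or Cx3cr1, without Ccl19, the Ccl21 genes and the Ccl27 genes. This name rule, which uses no measured value, found 55 of the 22180 genes on the array, 33 ligands and 22 receptors, each read by 1 probe set (the group of probes that reads 1 transcript). Total RNA of aorta from 3 eNOS-deficient samples (titled eNOS-KO 11, 15 and 19) and from 3 wild-type samples (WT 2, 3 and 5) of matched age was hybridised to 1 Affymetrix array each. Strain, sex, the targeted allele, the age itself and whether each sample is 1 animal or a pool were not stated in the labels, so the p-values cover the spread among these samples alone, which may be technical. In whole tissue, fewer cells of a type and less RNA per cell cannot be told apart.

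Chemokines are small secreted proteins that direct the movement of leukocytes. They bind to receptors coupled to inhibitory G proteins on the target cell, and are held on vessel walls by glycosaminoglycans. They are named for the spacing of their first cysteines, and broadly divide into homeostatic ones, which lay out lymphoid tissue, and inflammatory ones, which are induced by cytokines and draw monocytes, granulocytes or lymphocytes into tissue. Atypical receptors bind chemokines without the usual G protein signal and remove or transport them. In the artery wall the system is best known for monocyte entry through Ccl2 and Ccr2, and nitric oxide is known to restrain the expression of Ccl2 in endothelial cells.

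All values are log2 signals after RMA, the authors' normalization, and differences are eNOS-KO minus WT on that scale. Signals of different probes do not rank transcripts, so levels are compared only between arrays. Genes with a mean under 4.38, here called the dim level (the 25th percentile over the probe sets of the array), were not tested, which left 18007 genes. Array medians lay between 5.55 and 5.68, and Pearson's r between arrays across probe sets between 0.947 and 0.983. Nos3, the targeted gene, measured 7.13, 7.39 and 7.27 on eNOS-KO 11, 15 and 19 and 7.99, 7.88 and 7.36 on WT 2, 3 and 5, so that the groups overlapped (limma adjusted p = 0.399). Endothelial markers (10 of 10 measured) averaged 8.26 to 8.60 on the eNOS-KO arrays and 8.13 to 8.91 on the WT arrays, smooth muscle markers (7 of 7) 10.04 to 10.29 on the eNOS-KO arrays and 9.84 to 10.05 on the WT arrays, and none of these markers lay under the dim level. The arrays also differed in ways the labels do not give. Squamous epithelium markers averaged 5.55, 5.31 and 5.26 on eNOS-KO 11, 15 and 19 and 6.43, 5.57 and 9.29 on WT 2, 3 and 5. Y-linked genes averaged 7.76, 4.71 and 8.0 on the eNOS-KO arrays and 3.63, 3.54 and 3.47 on the WT arrays, and Xist, the RNA of the inactive X chromosome, measured 5.65, 11.88 and 8.29 on the eNOS-KO arrays and 12.09, 12.08 and 12.09 on the WT arrays. The Y-linked signal thus separated the genotypes, and an effect of sex cannot be told apart from one of genotype, except that eNOS-KO 15 had an Xist signal close to that of the WT arrays.

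Of the 55 members, 49 lay at or above the dim level and were tested, and none passed an adjusted p under 0.05 in limma over all 18007 genes, where 0.0278% of all genes did. At an unadjusted p under 0.05, 8 members were higher in eNOS-KO aorta (16.3% of those tested), against 7.86% of all genes, and 0 were lower, against 3.72%. With each array centred on its median, 12 members were higher and 0 lower, and over all genes the split of 1415 higher and 669 lower moved to 2028 (11.3%) and 388 (2.15%). At 11 members (22.4%) every eNOS-KO array lay above every WT array, and at 1 (2.04%) below, where 13.1% and 6.48% of all genes did so. The 8 members were 7 ligands, Ccl2, Ccl6, Ccl7, Ccl9, Ccl11, Ccl24 and Cxcl14, and 1 atypical receptor, Ackr3. Ligands had a median difference of 0.15 over 30 genes (-0.29 to 1.04), receptors one of 0.04 over 19 (-0.47 to 0.77) and all genes one of 0.036. Receptors therefore lay close to the whole array, while 22 of 30 ligands (73.3%) had a positive difference, against 56.6% of all genes.

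**Figure D1:**
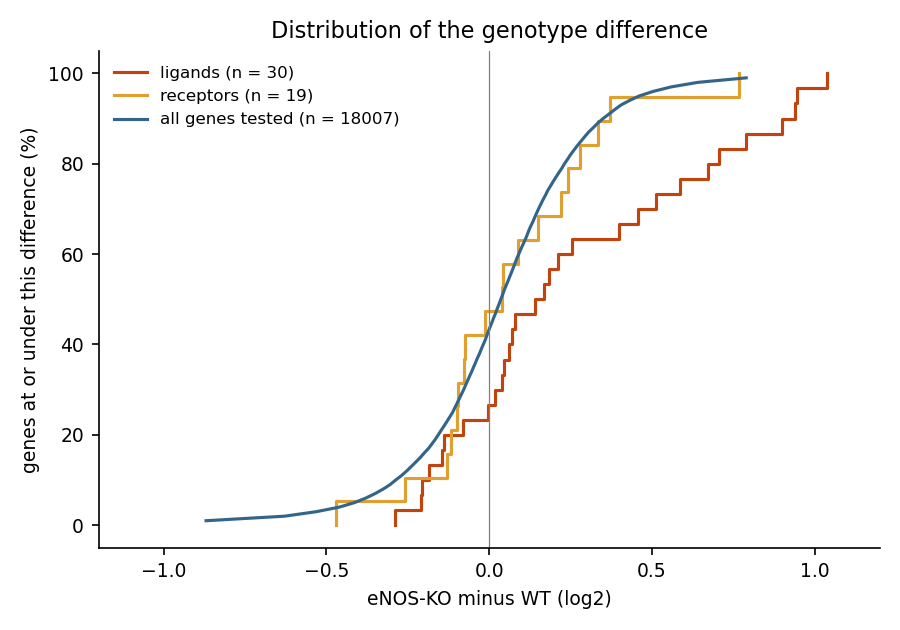
Cumulative distribution of the genotype difference (x axis, eNOS-KO minus WT in log2; y axis, percent of genes at or under that difference) for 30 ligands, 19 receptors and 18007 genes tested. The receptors run close to the curve of all genes, and the ligand curve lies to its right over most of the range.

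Among the CC ligands that attract monocytes and eosinophils, all 5 tested members of this group had eNOS-KO arrays wholly above the WT arrays. Of all genes, 13.1% did so. The 5 had a median difference of 0.67, and 4 were higher at an unadjusted p under 0.05, against 7.86% of all genes. In the group of other inflammatory CC ligands 2 of 9 lay wholly above, and Ccl3, Ccl4 and Ccl5 did not. These groups were drawn up with earlier results of these data known. Ccl24 (eotaxin-2), which attracts eosinophils through Ccr3, measured 6.97, 6.77 and 6.50 on eNOS-KO 11, 15 and 19 and 6.03, 6.17 and 6.02 on WT 2, 3 and 5. The WT arrays lay within 0.15 of each other, and the lowest eNOS-KO array stood 0.33 above the highest of them. The difference was 0.67 (standard error 0.15, 1.59-fold, limma adjusted p = 0.236), the smallest adjusted p among the members.

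Ccl11 (eotaxin-1), also a ligand of Ccr3, measured 8.66, 8.35 and 8.51 in eNOS-KO aorta and 7.82, 7.93 and 8.23 in WT aorta. WT 5 was the highest WT array and came within 0.12 of the lowest eNOS-KO array. Ccl11 differed by 0.51 (standard error 0.15, limma adjusted p = 0.315). Ccl2 (MCP-1), the main attractant of classical monocytes, stood at 7.07, 7.10 and 6.78 on the eNOS-KO arrays and at 6.59, 6.09 and 6.51 on the WT arrays. Its groups did not overlap, by a gap of 0.19, and WT 3 was the lowest array. For Ccl2 the difference was 0.59 (95% interval 0.18 to 0.99, limma adjusted p = 0.311).

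Ccl7 (MCP-3), a second Ccr2 ligand, measured 7.22, 6.76 and 6.95 in eNOS-KO and 6.15, 6.05 and 6.61 in WT aorta, with WT 5 again nearest to the eNOS-KO arrays. Its difference was 0.71 (standard error 0.19, limma adjusted p = 0.292). Ccl8, which in the mouse acts through Ccr8, measured 6.33, 6.37 and 7.61 in eNOS-KO and 6.08, 6.17 and 5.69 in WT aorta. The 2 lower eNOS-KO arrays lay only 0.16 and 0.20 above the highest WT array and eNOS-KO 19 stood far above both, so the difference of 0.79 had a standard error of 0.35 and did not reach the unadjusted level (limma adjusted p = 0.438). Without eNOS-KO 19 it was 0.37. Ccl12, the mouse MCP-5 and also a Ccr2 ligand, lay under the dim level with 4.24, 4.33 and 4.46 on the eNOS-KO arrays and 3.33, 4.12 and 3.90 on the WT arrays. It was not tested, although its groups did not overlap either. Ccl26 lay under the dim level on all 6 arrays, at 3.39, 4.16 and 3.13 in eNOS-KO and 3.48, 3.60 and 3.27 in WT aorta.

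Among the other inflammatory CC ligands, 2 of 9 had an unadjusted p under 0.05, and these were the pair of related, neighbouring genes Ccl6 and Ccl9, which in rodents are made mainly by myeloid cells and act through Ccr1. Ccl6 measured 7.86, 7.58 and 8.50 on eNOS-KO 11, 15 and 19 and 6.39, 6.95 and 7.50 on WT 2, 3 and 5, the largest difference of any member that was tested (1.04, 2.05-fold, 95% interval 0.27 to 1.81, limma adjusted p = 0.331). WT 5 came within 0.084 of eNOS-KO 15. Ccl9 measured 8.12, 7.90 and 8.55 in eNOS-KO and 6.72, 7.30 and 7.71 in WT aorta, a difference of 0.94 (standard error 0.28, limma adjusted p = 0.308). Both genes were highest on eNOS-KO 19 and lowest on WT 2, and within WT they had the same order of arrays.

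The same arrays differed in markers of the cells known to make these ligands. Macrophage markers (11 of 12 measured, none under the dim level) averaged 7.89 to 8.23 on the eNOS-KO arrays and 7.06 to 7.45 on the WT arrays, with 9 of 11 not overlapping, and fibroblast markers (7 of 7) 9.58 to 9.85 on the eNOS-KO arrays and 8.88 to 9.39 on the WT arrays, with 4 of 7 not overlapping. These non-overlapping markers were all higher in eNOS-KO, and 13.1% of all genes were likewise non-overlapping and higher. In both lists WT 5 was the highest WT array (7.45 and 9.39), as it was for Ccl6, Ccl7, Ccl9 and Ccl11, but not for Ccl2 or Ccl24. Mast cell markers (6 of 6, Fcer1a under the dim level) averaged 6.92 to 7.36 on the eNOS-KO arrays and 6.44 to 6.78 on the WT arrays. The part of these cells in the ligand differences was not tested. With eNOS-KO 15, the array with an Xist signal like that of WT, as the only eNOS-KO array, 2 of the 8 members were under an unadjusted p of 0.05, Ccl2 (0.70) and Ccl24 (0.70). In that fit 2.54% of all genes were higher at this level. The differences of the other ligands there were 0.64 for Ccl6, 0.66 for Ccl9, 0.49 for Ccl7, 0.35 for Ccl11 and 0.39 for Cxcl14, and these 7 were chosen on arrays that include eNOS-KO 15.

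**Figure D2:**
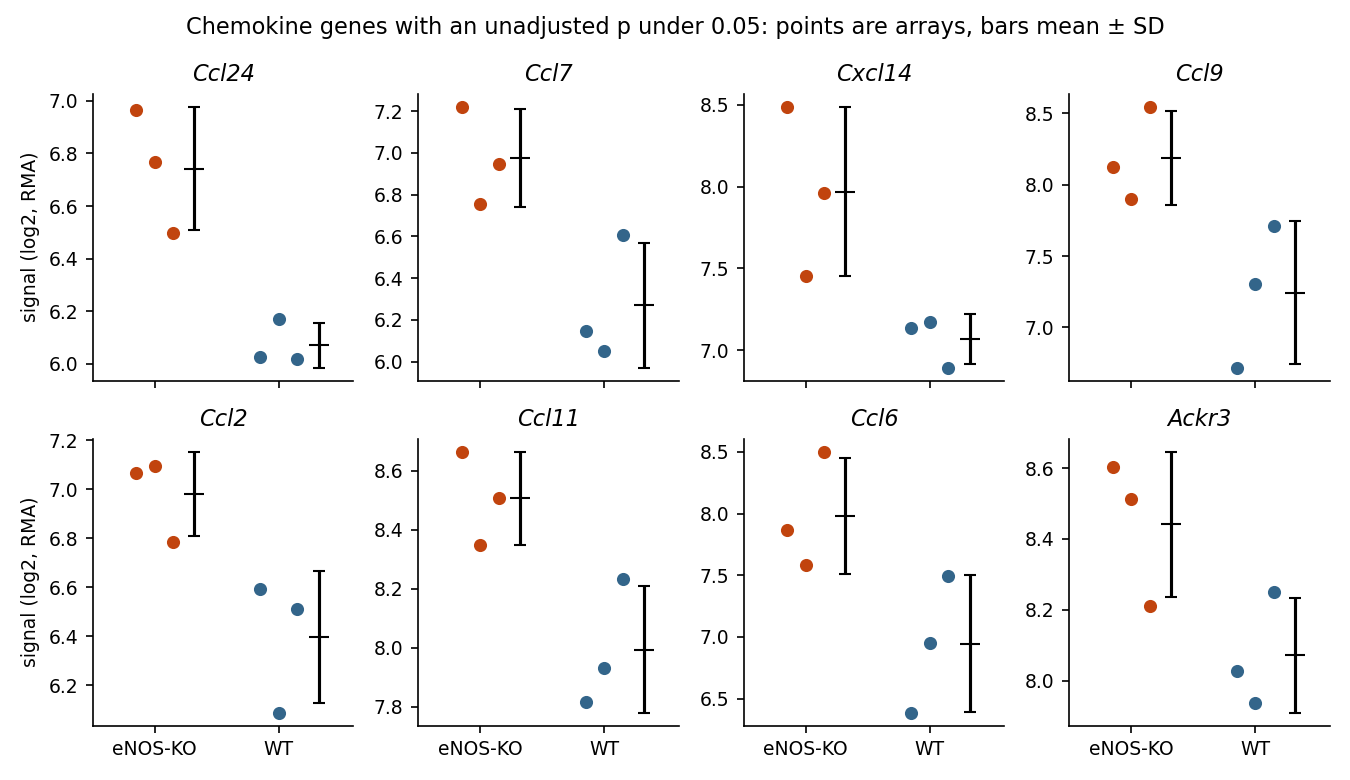
Log2 signal (y axis, RMA, a separate scale per panel that does not start at 0) of the 8 members with an unadjusted p under 0.05, with 1 point per array, eNOS-KO in red at the left (11, 15 and 19 from left to right) and WT in blue at the right (2, 3 and 5), beside the mean ± SD of each group. For 7 of the 8 the groups do not overlap, and for Ackr3 the highest WT array lies above the lowest eNOS-KO array.

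The promoters of some of these genes are shown because several of these neighbouring or related genes had differences of one direction, and chemokine genes are textbook targets of inflammatory transcription factors. RefSeq windows (GRCm38.p6) were found for 41 of the 55 members, and not for Ccl2, Ccl5, Ccl7, Ccl11, Ccl24 and others. Each line below gives the 250 bases before the start of the gene, 5′ to 3′ on the gene's strand, with matches in capitals to the NF-kB motif, to the interferon element GAAANNGAAA, to the AP-1 motif TGANTCA or to the TATA box TATAAA, on either strand. Ccl8 lies at chr11:82114935-82115184 (plus strand), Ccl6 at chr11:83593088-83593337 (minus strand), Ccl9 at chr11:83578637-83578886 (minus strand) and Cxcl14 at chr13:56296552-56296801 (minus strand). Cxcl10 at chr5:92348890-92349139 (minus strand), a gene known to respond to interferon and NF-kB whose signal differed by only 0.061, is given for contrast.
Ccl8: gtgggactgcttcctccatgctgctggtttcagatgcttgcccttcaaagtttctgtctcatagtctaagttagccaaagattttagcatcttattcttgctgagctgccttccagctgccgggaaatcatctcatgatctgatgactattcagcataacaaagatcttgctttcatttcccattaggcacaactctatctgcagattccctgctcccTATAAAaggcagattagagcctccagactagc
Ccl6: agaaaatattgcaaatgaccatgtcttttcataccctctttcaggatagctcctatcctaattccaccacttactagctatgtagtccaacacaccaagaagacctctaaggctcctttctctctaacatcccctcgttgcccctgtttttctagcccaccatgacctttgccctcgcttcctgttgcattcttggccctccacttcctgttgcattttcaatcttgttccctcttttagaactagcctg
Ccl9: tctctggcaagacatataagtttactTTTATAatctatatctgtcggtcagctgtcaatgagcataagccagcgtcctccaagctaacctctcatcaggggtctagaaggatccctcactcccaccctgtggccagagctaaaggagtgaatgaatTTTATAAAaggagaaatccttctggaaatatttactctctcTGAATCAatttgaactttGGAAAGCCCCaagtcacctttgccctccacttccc
Cxcl14: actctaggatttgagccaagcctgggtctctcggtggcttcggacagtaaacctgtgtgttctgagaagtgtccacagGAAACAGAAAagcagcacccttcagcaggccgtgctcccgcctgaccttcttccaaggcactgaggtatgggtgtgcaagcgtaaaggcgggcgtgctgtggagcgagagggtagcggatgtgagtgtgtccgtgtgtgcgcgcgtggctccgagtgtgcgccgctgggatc
Cxcl10: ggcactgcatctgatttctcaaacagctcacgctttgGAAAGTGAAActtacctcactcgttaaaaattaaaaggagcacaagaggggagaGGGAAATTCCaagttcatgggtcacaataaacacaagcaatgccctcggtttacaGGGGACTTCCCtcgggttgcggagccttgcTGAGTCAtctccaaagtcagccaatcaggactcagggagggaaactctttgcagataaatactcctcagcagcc
In these windows Cxcl10 held 3 NF-kB matches in 2 places (2 of them overlap by all but 1 base), an interferon element and an AP-1 match. Ccl9 held 1 NF-kB match, 1 AP-1 match and 3 TATA box matches, 2 of which overlap. Ccl8 had a TATA box 32 bases before its start, Cxcl14 an interferon element, and Ccl6 none of the 4. Among all 32851 windows, the NF-kB motif was found in 7.25%, the interferon element in 2.98%, the AP-1 motif in 6.75% and the TATA box in 12.4%. Of the 41 members with a window, 11 held an NF-kB match, 2 an interferon element, 4 an AP-1 match and 14 a TATA box. Members were counted by gene, with a match in any window of the gene, while the percentages are of windows. These matches describe letters only, and their relation to the differences was not tested.

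The remaining inflammatory CC ligands had no unadjusted p under 0.05. Ccl4 (MIP-1 beta) measured 5.46, 5.54 and 5.38 in eNOS-KO and 5.55, 5.60 and 5.85 in WT aorta, and was the only tested member with eNOS-KO arrays wholly below the WT arrays, by a gap of 0.0085 (-0.21, standard error 0.13, limma adjusted p = 0.577). Without WT 5 its difference was -0.11. Ccl3 (MIP-1 alpha), its neighbour and close relative, differed by -0.08 and Ccl1, a ligand of Ccr8, by -0.18, both with overlapping groups. Ccl17, a ligand of Ccr4 on T cells, differed by 0.25 (95% interval -0.22 to 0.73) and Ccl20, the ligand of Ccr6, by 0.14 (-0.17 to 0.45), also with overlap.

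Cxcl14 was the 1 homeostatic ligand of 6 with an unadjusted p under 0.05. It is made constitutively by many epithelia and stromal cells. The signal was 8.49, 7.46 and 7.96 on eNOS-KO 11, 15 and 19 and 7.14, 7.18 and 6.89 on WT 2, 3 and 5. The WT arrays lay close together and each eNOS-KO array stood above them, eNOS-KO 11 the highest. The difference was 0.90 (1.86-fold, 95% interval 0.31 to 1.49, limma adjusted p = 0.294). On the same arrays fibroblast markers averaged 9.85, 9.72 and 9.58 in eNOS-KO and 8.88, 9.06 and 9.39 in WT aorta, also with eNOS-KO 11 highest but with WT 5, the lowest array for Cxcl14, highest in WT, and their part in the result was not tested.

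Cxcl12 (SDF-1), which holds Cxcr4-bearing cells in tissues, measured 9.06, 9.69 and 9.57 in eNOS-KO and 9.70, 9.52 and 8.95 in WT aorta. The groups overlapped, with eNOS-KO 11 and WT 5 both low, and the interval of the difference was -0.53 to 0.62 around 0.045. Of the others, Ccl25, known for guiding cells to thymus and gut, differed by 0.071, Ccl28, a mucosal chemokine, by -0.0034, and Cxcl17, also mucosal, by -0.14, each with an adjusted p of 0.79 or more.

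Among the members, no inflammatory CXC ligand had an unadjusted p under 0.05 or groups that did not overlap. The name rule leaves out chemokines with older names, such as Pf4, which is given below with the other pathway genes. Those members that draw neutrophils through Cxcr2 had 0 of 4 tested under an unadjusted p of 0.05. Of all genes, 7.86% were higher and 3.72% lower at that level. Cxcl1 measured 5.18, 5.13 and 4.88 in eNOS-KO and 4.85, 5.04 and 4.75 in WT aorta, Cxcl5 differed by 0.018 (95% interval -0.26 to 0.29), and Cxcl3 lay under the dim level. Cxcl2 stood at 4.65, 4.60 and 4.49 on the eNOS-KO arrays and at 4.44, 4.60 and 5.57 on the WT arrays, with WT 5, the array rich in squamous epithelium markers, apart from the others. Cxcl15 (lungkine), a chemokine known from lung epithelium, measured 4.58, 4.58 and 7.55 in eNOS-KO and 4.43, 4.54 and 4.93 in WT aorta, so that its difference of 0.94 came from eNOS-KO 19 alone. On that array the surfactant gene Sftpc stood at 9.92, against 4.95 and 4.75 on eNOS-KO 11 and 15 and 4.84, 5.03 and 6.46 on WT 2, 3 and 5. The 8 lung genes looked up after Cxcl15 had been seen averaged 5.07, 4.86 and 6.15 on the eNOS-KO arrays and 5.78, 5.12 and 5.46 on the WT arrays. Of these, 5 (Sftpc, Sftpa1, Sftpb, Cldn18 and Lamp3) were highest on eNOS-KO 19, while Sftpd, Ager and Scgb1a1 were not. Scgb1a1, of airway club cells, measured 3.38, 3.34 and 3.49 on the eNOS-KO arrays and 8.99, 5.24 and 4.37 on the WT arrays, with every eNOS-KO array lower, and the part of lung tissue in the Cxcl15 value was not tested.

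The interferon-inducible ligands of Cxcr3, which draw activated T cells, had differences of -0.21 for Cxcl9, 0.061 for Cxcl10 and 0.039 for Cxcl11, with limma adjusted p of 0.747 or more. Cxcl9 measured 8.81, 9.16 and 9.25 in eNOS-KO and 9.53, 9.44 and 8.87 in WT aorta, with WT 5 inside the eNOS-KO range. Among the WT arrays, WT 5 was lowest for Cxcl9 and for endothelial markers. The markers averaged 8.13 there, against 8.85 and 8.91 on WT 2 and 3. Over all arrays Cxcl9 was lowest on eNOS-KO 11, and the part of endothelial cells in its values was not tested. Without WT 5, Cxcl9 was the single member lower at an unadjusted p under 0.05, where 5.93% of all genes were. The 2 transmembrane chemokines, which can tether leukocytes to the vessel wall or be shed, both had overlapping groups. Cxcl16, the ligand of Cxcr6, measured 7.91, 8.55 and 8.79 in eNOS-KO and 7.91, 7.94 and 8.03 in WT aorta (0.46, limma adjusted p = 0.483). The overlap came from eNOS-KO 11, which matched WT 2, and the difference was 0.71 without that array and 0.27 without eNOS-KO 19. Cx3cl1 (fractalkine) differed by 0.17 (95% interval -0.19 to 0.53) and Xcl1, a lymphocyte chemokine, by 0.079 (-0.27 to 0.42).

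**Figure D3:**
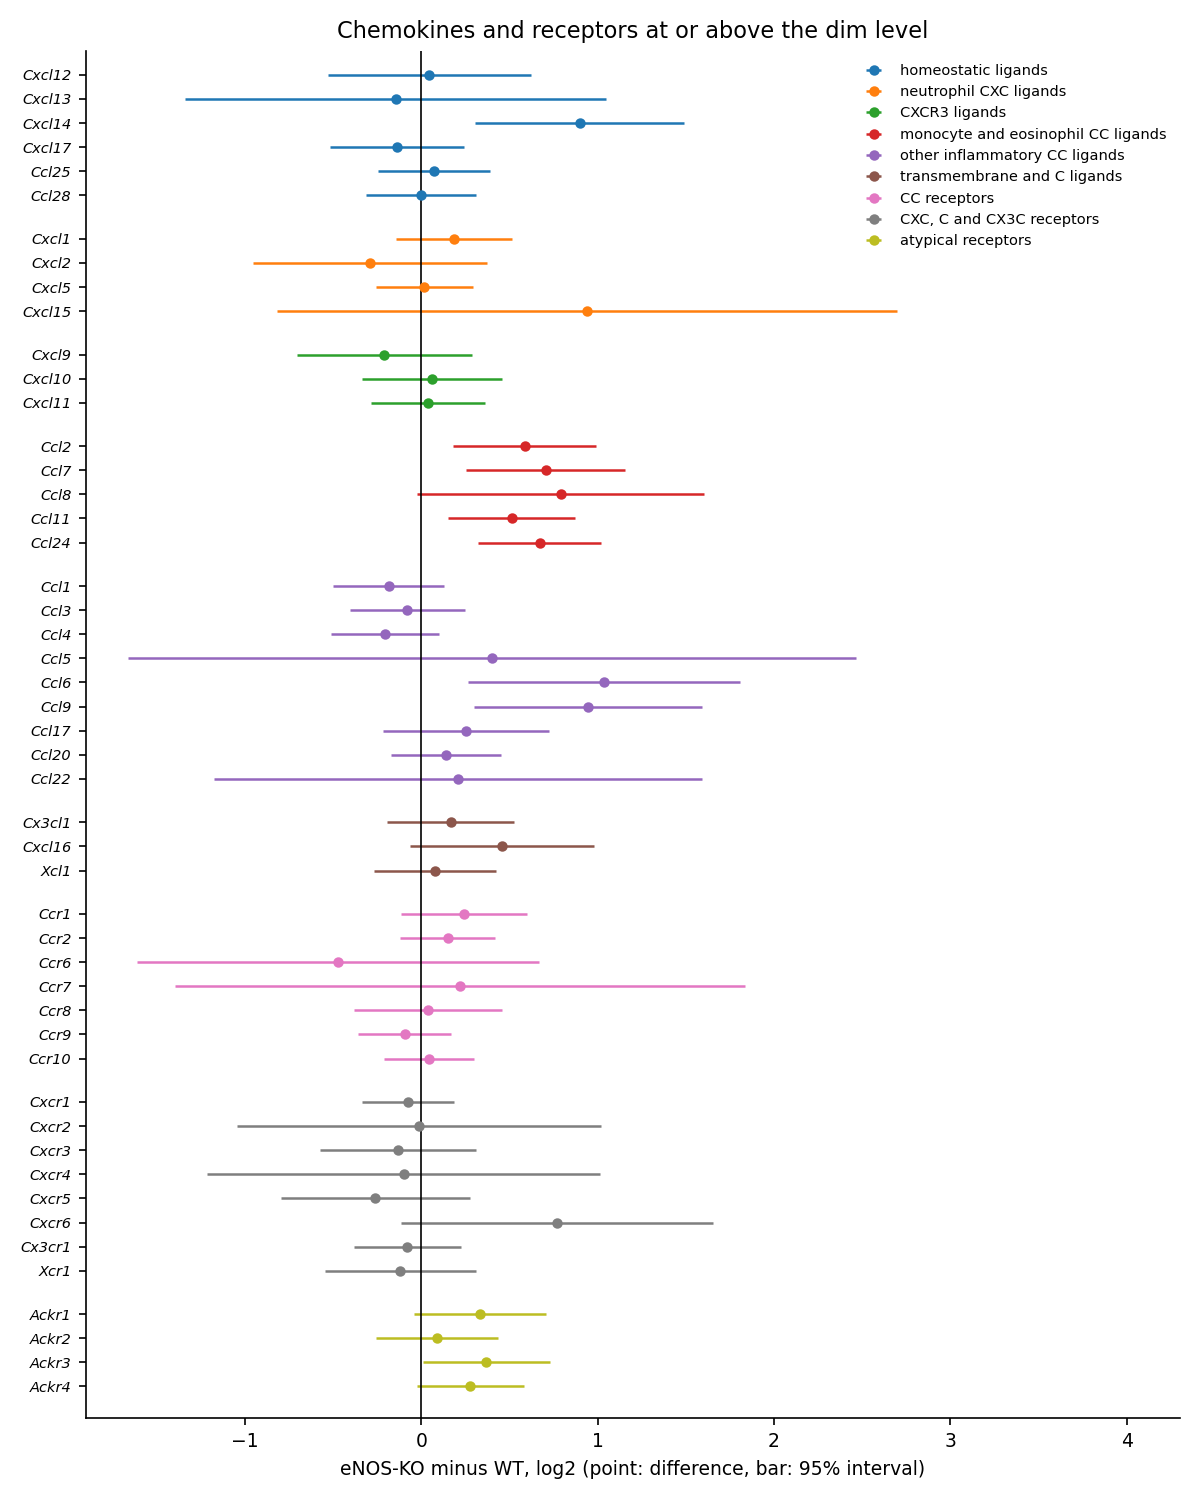
Difference (x axis, eNOS-KO minus WT in log2, with its 95% interval as a bar) of each of the 49 tested members, grouped by role down the page. The monocyte and eosinophil CC ligands lie together between 0.51 and 0.79, while the receptors scatter around 0 and several members have wide intervals.

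The receptors of these CC ligands had smaller differences than the ligands, a contrast that was not tested. Ccr2, the receptor of Ccl2 and Ccl7 on classical monocytes, measured 6.82, 6.77 and 6.73 in eNOS-KO and 6.65, 6.72 and 6.51 in WT aorta. Its groups just failed to overlap, by 0.016, with a difference of 0.15 (95% interval -0.12 to 0.42, limma adjusted p = 0.657). Ccr1, which binds Ccl6 and Ccl9, stood at 4.70, 4.57 and 4.28 on the eNOS-KO arrays and 4.37, 4.33 and 4.11 on the WT arrays, close to the dim level, and differed by 0.24 (limma adjusted p = 0.572). Ccr3, the receptor of Ccl11 and Ccl24 on eosinophils, lay far under the dim level at 2.84, 3.39 and 3.14 in eNOS-KO and 3.15, 3.35 and 3.02 in WT aorta and gave no usable value. Ccr8 differed by 0.04 (-0.38 to 0.46).

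Of the other receptors, Cx3cr1, carried by patrolling monocytes and many tissue macrophages, measured 6.64, 6.92 and 6.89 in eNOS-KO and 6.90, 6.81 and 6.98 in WT aorta, a difference of -0.078 (95% interval -0.38 to 0.22), although macrophage markers were higher in eNOS-KO aorta. Cxcr6, of activated T and NK cells, measured 5.55, 6.85 and 6.88 in eNOS-KO and 6.09, 5.34 and 5.54 in WT aorta (0.77, limma adjusted p = 0.484). As with its ligand Cxcl16, the overlap came from eNOS-KO 11. Cxcr3 differed by -0.13, Cxcr1 by -0.074, Xcr1, of cross-presenting dendritic cells, by -0.12, Ccr9 by -0.094 and Ccr10 by 0.043. All 5 overlapped, and the widest of their 95% intervals was that of Cxcr3, -0.57 to 0.31.

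All 4 atypical receptors had a positive difference, with a median of 0.31 and a range of 0.09 to 0.37. Ackr3, which takes up Cxcl12 and Cxcl11, measured 8.60, 8.51 and 8.21 in eNOS-KO and 8.03, 7.94 and 8.25 in WT aorta. WT 5 lay above eNOS-KO 19, and the difference was 0.37 (standard error 0.15, limma adjusted p = 0.421). It did not stay under an unadjusted p of 0.05 after repeated quantile normalization, without eNOS-KO 11, eNOS-KO 15, WT 2 or WT 3, or with eNOS-KO 15 alone, and its difference there was 0.29 to 0.44. Ackr1, the Duffy antigen of red cells and venular endothelium, stood at 6.89, 7.0 and 7.40 in eNOS-KO and 6.66, 6.87 and 6.76 in WT aorta, with a gap of 0.021 between groups (0.33, limma adjusted p = 0.481). Without eNOS-KO 19 the Ackr1 difference was 0.18. Ackr4, which removes Ccl19, Ccl21 and Ccl25, stood at 5.17, 5.29 and 5.04 in eNOS-KO and 4.95, 4.74 and 4.96 in WT aorta (0.28, limma adjusted p = 0.464), and lymphatic markers, of cells that carry it, averaged 7.15 to 7.40 on the eNOS-KO arrays and 6.60 to 6.91 on the WT arrays. Ackr2, a scavenger of inflammatory CC chemokines, differed by 0.09 with overlap.

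Several members varied widely among the eNOS-KO arrays. In 11 of 49 members (22.4%) the eNOS-KO arrays spanned over 1 log2 unit, against 5.51% of all genes. In 3 members (Cxcl2, Ccl6 and Ccl22) the WT arrays did, against 5.59% of all genes. Of the 11, 7 had their lowest of all 6 values on eNOS-KO 11 and 9 their highest on eNOS-KO 19. The genes described next were chosen after their values were seen.

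Ccl5 (RANTES), made by T and NK cells, measured 7.16, 10.41 and 10.86 on eNOS-KO 11, 15 and 19 and 9.34, 9.17 and 8.72 on WT 2, 3 and 5. It was the lowest of all on eNOS-KO 11 and higher than every WT array on the other two, a span of 3.70 in eNOS-KO against 0.62 in WT. Ccr7, which brings naive T cells and dendritic cells to lymph nodes, stood at 6.01, 8.29 and 8.95 in eNOS-KO and 7.47, 7.94 and 7.18 in WT aorta. Cxcl13, which organises B cell follicles, stood at 9.11, 10.60 and 11.40 in eNOS-KO and 10.44, 10.63 and 10.48 in WT aorta, with its WT arrays within 0.19 of each other. Its receptor on B cells, Cxcr5, was likewise lowest on eNOS-KO 11 (6.60, 7.08 and 7.49, against 7.33, 7.46 and 7.14 in WT). Ccr6, also of B cells, measured 4.82, 6.50 and 6.75 in eNOS-KO and 6.30, 6.91 and 6.27 in WT aorta, and Cxcr4, the receptor of Cxcl12, 6.83, 7.68 and 8.72 in eNOS-KO and 7.49, 8.45 and 7.59 in WT aorta.

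For all of these genes eNOS-KO 11 was the lowest array, and in all but Cxcr5 the genotype difference was smaller than its standard error: Ccl5 differed by 0.40 (standard error 0.88), Ccr7 by 0.22 (0.69), Cxcl13 by -0.15 (0.51), Ccr6 by -0.47 (0.49), Cxcr4 by -0.1 (0.48) and Cxcr5 by -0.26 (0.23). Ccl22, a dendritic cell ligand of Ccr4, measured 5.02, 6.72 and 7.13 in eNOS-KO and 6.94, 5.46 and 5.83 in WT aorta, with a span of 1.48 within WT too. Cxcr2, the receptor of neutrophils, stood at 5.40, 6.47 and 7.37 in eNOS-KO and 6.51, 6.23 and 6.55 in WT aorta. Markers of B cells (6 of 7 measured) averaged 5.90, 8.38 and 8.57 on eNOS-KO 11, 15 and 19 and 8.03, 8.63 and 8.22 on WT 2, 3 and 5, and markers of T and NK cells (9 of 11, Klrb1c under the dim level) 5.55, 7.10 and 7.37 on the eNOS-KO and 6.51, 6.71 and 6.53 on the WT arrays. Monocyte and neutrophil markers (9 of 9, S100a8 and Ly6g under the dim level) averaged 5.27, 5.43 and 5.94 on the eNOS-KO and 5.18, 5.37 and 5.48 on the WT arrays. Dendritic cell markers (5 of 6 measured, the member Xcr1 among them) averaged 5.72, 6.31 and 6.23 on the eNOS-KO and 6.23, 6.02 and 5.98 on the WT arrays. The lymphocyte and dendritic cell markers were thus lowest on eNOS-KO 11 too, and their part in the values of these chemokine genes was not tested.

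Leaving out eNOS-KO 11 brought 13 members to an unadjusted p under 0.05 in place of 8, while the share of all genes higher at that level was 6.25%. It added Ccl5, Ccr7, Ccl8, Cxcl16, Cxcr6 and Ackr1 and dropped Ackr3. The 7 ligands named above stayed under 0.05 when any single array was left out, eNOS-KO 11 included. Ccl6 did so narrowly, with a limma unadjusted p = 0.0498 without eNOS-KO 19 and 0.0496 without WT 2. The 7 had been chosen at that level on these same arrays.

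**Figure D4:**
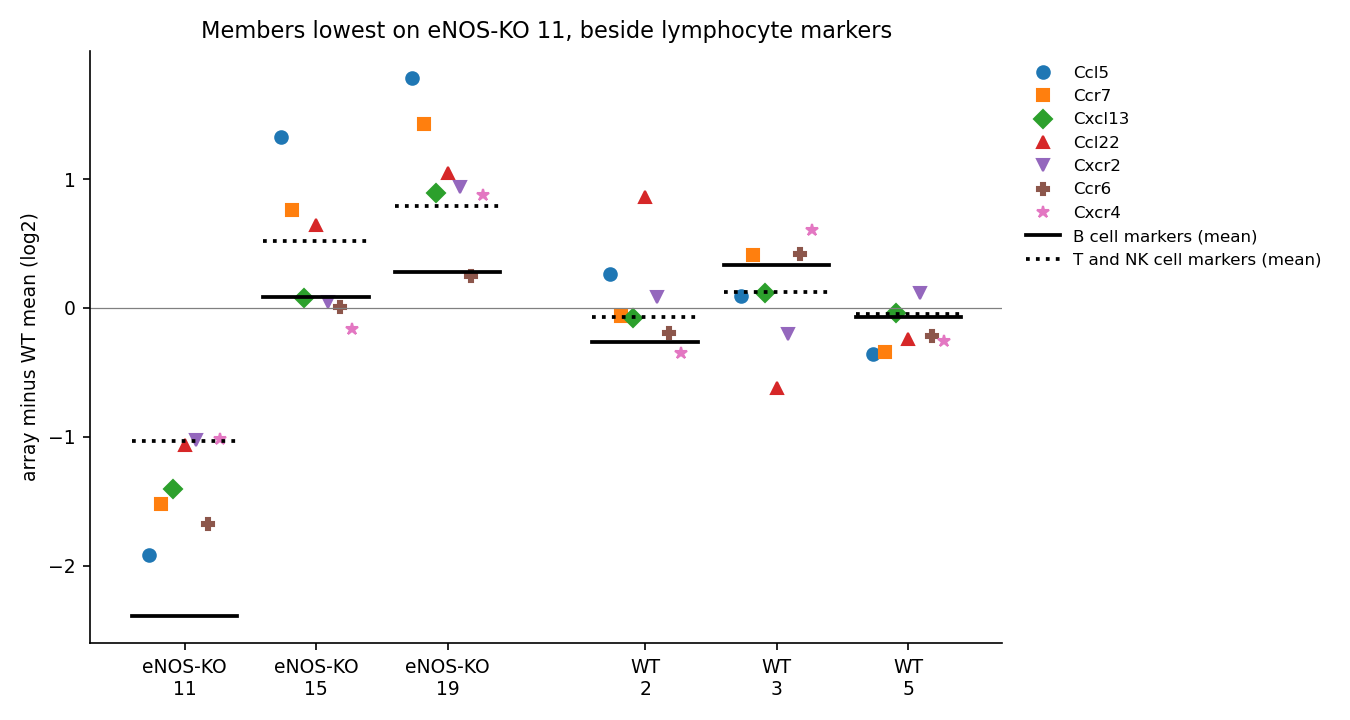
Log2 signal of each array minus the WT mean (y axis) for the 7 members that span over 1 log2 unit in eNOS-KO and are lowest on eNOS-KO 11, with eNOS-KO arrays at the left and WT arrays at the right. Horizontal bars give the mean of B cell markers (solid) and of T and NK cell markers (dotted). The 7 members are below their WT mean on eNOS-KO 11 by the way they were chosen. The 2 marker means, not chosen by this, are also below their WT mean there.

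Many chemokine genes lie next to each other, and neighbours were read in the order of the RefSeq gene table. One run on chromosome 11 was Ccl2, Ccl7, Ccl11, Ccl12, Ccl8 and Ccl1. In it 4 of 5 tested members had a positive difference and non-overlapping groups, with Ccl1, at its end, at -0.18. Of all genes, 56.6% had a positive difference and 13.1% had eNOS-KO arrays wholly above the WT arrays. Those 4 members were already counted among the monocyte and eosinophil ligands. In the second run on chromosome 11, Ccl5, Ccl9, Ccl6, Ccl3 and Ccl4, the middle genes Ccl9 and Ccl6 were higher (0.94 and 1.04) while Ccl3 and Ccl4 differed by -0.08 and -0.21. Ccl24 and Ccl26 are neighbours on chromosome 5. The neutrophil ligands on chromosome 5 had differences between -0.29 and 0.94 with 0 of 4 under an unadjusted p of 0.05. The chromosome 9 run of 7 receptors had 0 of 5. At that level 7.86% of all genes were higher and 3.72% lower, so runs this short allow no contrast between them.

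Other genes of the pathway were taken from lists of binding and processing partners and of signalling proteins. Of 11 measured binding and processing genes, 3 (27.3%) were higher at an unadjusted p under 0.05, against 7.86% of all genes. At that level 0 were lower, against 3.72% of all genes, and 0 passed after adjustment over all genes. Pf4, a platelet and macrophage chemokine with a name of the older style, measured 8.26, 7.77 and 8.07 in eNOS-KO and 6.88, 7.22 and 7.64 in WT aorta (0.78, limma adjusted p = 0.292). Sdc2, a heparan sulphate proteoglycan of the kind that holds chemokines, differed by 0.47 (limma adjusted p = 0.294), and Ccrl2, an atypical receptor of chemerin, by 0.76 (limma adjusted p = 0.337). For all 3 the groups did not overlap, with eNOS-KO higher, where 13.1% of all genes did so. Over the 11 genes, 7 differences were positive and 4 negative, the lowest being that of Ppbp (-0.50, with overlapping groups). The 39 measured signalling genes had a median difference of 0.053, close to that of all genes. Of them, 0 were lower and 1 (2.56%) was higher at an unadjusted p under 0.05, against 3.72% and 7.86% of all genes. That gene was Rgs2, which shortens G protein signals, at 10.02, 10.44 and 11.04 in eNOS-KO and 9.84, 9.96 and 9.77 in WT aorta (0.64, limma adjusted p = 0.39). Next by p came Grk5, a kinase that desensitises such receptors (0.49), and Arrb1, a beta-arrestin (0.31), neither under 0.05.

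The 6 members under the dim level were Ccl12, Ccl26, Cxcl3, Ccr1l1, Ccr3 and Ccr4. Nearest to the level of 4.38 were Ccr4 below it, with a mean of 4.37 over all arrays, and Ccr1 above it, with 4.39. Ccr4, the receptor of Ccl17 and Ccl22, measured 3.70, 4.57 and 4.28 in eNOS-KO and 5.13, 4.26 and 4.26 in WT aorta. Without the dim filter all 55 members could be tested, and 9 were higher at an unadjusted p under 0.05, Ccl12 in addition to the 8, as were 6.15% of all 22180 genes.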

How the data were processed

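Aortic RNA (3 eNOS-KO and 3 WT samples) was labelled, starting with 300 ng per array according to the labels' protocols. The deposited table holds log2 values made with RMA in Affymetrix Expression Console 1.3.1, per the submitters' processing notes, and they were used as deposited. Gene symbols came from GEO's platform annotation (23521 of 41345 with 1 symbol, 1814 with several, 16010 with none; 23328 gene IDs matched RefSeq). The brightest probe set stood for a gene, and the dim level was the 25th percentile of probe set means. limma 3.58.1 in R 4.3.3 (lmFit, eBayes, two-sided, no covariates, checked on simulated data) fitted all genes, with Benjamini-Hochberg adjustment over 18007. An exact permutation of 3 against 3 arrays cannot give a p under 0.1, so none is given. The number of arrays limits the precision: the median standard error of a difference was 0.16 log2. No 2 arrays shared over 0.109% of values. Members were named where they had an unadjusted p under 0.05 or no overlap, were among the 8 brightest, or were partners of these. Any other member given with values, such as Ccl26, Cxcl1, Cxcl2, Cx3cr1 and Ccr4, was chosen after its values were seen. Members, lists and tests were chosen with earlier results of these data known. Lung genes and the members with a wide span were picked after their values were seen. Plots used matplotlib 3.10.9 in Python 3.11.15.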

Additional observations from a re-analysis of the deposited data

How the results depend on the processing

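Under 15 alternatives no member passed an adjusted p under 0.05, the lowest being 0.059 with array weights. The genes that passed were 5 in the main setting, 3 without the dim filter, 2 with the mean of probe sets, 2 after repeated quantile normalization, 119 with array weights, 0 to 6 with 1 array left out, and, chosen after seeing the data, 2 without eNOS-KO 11 and WT 5 together and 0 with eNOS-KO 15 alone against WT, a fit that assumes the lone array to vary like the WT arrays. Members higher at an unadjusted p under 0.05 were 8, and 7 to 13 with 1 array left out (13 without eNOS-KO 11), 13 without eNOS-KO 11 and WT 5, and 5 for eNOS-KO 15 alone. The share of all genes higher was 7.86%, and 4.96% to 8.93%, 9.47% and 2.54% in the same settings. Members lower were 0, and 0 to 1 with 1 array left out (Cxcr5 without eNOS-KO 19, Cxcl9 without WT 5). The median difference over tested members was 0.079, and 0.16 with the 50th percentile filter, 0.14 with centred arrays, 0.033 to 0.19 with 1 array left out, 0.19 without eNOS-KO 11 and WT 5 and 0.15 for eNOS-KO 15 alone.

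Among 26 named members tested, 20 of 385 recomputed differences changed sign, in 8 members, none of them under an unadjusted p of 0.05 in the main setting. Cxcl12 was at 0.045, and at -0.18 to 0.24 with 1 array left out, -0.050 after repeated quantile normalization. Cxcl13 was at -0.15, and at -0.66 to 0.48 with 1 array left out, 0.46 without eNOS-KO 11 and WT 5 together, 0.079 for eNOS-KO 15 alone. Ccl25 was at 0.071, and at -0.043 to 0.14 with 1 array left out. Cxcl11 was at 0.039, and at -0.028 to 0.15 with 1 array left out, -0.049 for eNOS-KO 15 alone. Ccl5 was at 0.40, and at -0.29 to 1.56 with 1 array left out. Ccr8 was at 0.04, and at -0.11 to 0.17 with 1 array left out. Cxcr3 was at -0.13, and at -0.27 to 0.025 with 1 array left out, 0.15 without eNOS-KO 11 and WT 5 together. Cxcr4 was at -0.1, and at -0.59 to 0.36 with 1 array left out, 0.23 without eNOS-KO 11 and WT 5 together. The cause of these changes was not tested. No paired analysis was possible because the groups share no replicate number. All 55 members have 1 probe set, so the mean of probe sets changed only the other genes.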
